A study of Mus musculus with 4 samples.

Results

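Secreted proteases of the ADAMTS family were followed in smooth muscle cells (SMCs) sorted from lungs of control mice and of mice mutant for *Tet3*. This gene encodes an enzyme that oxidizes 5-methylcytosine in DNA. The genes considered were *Adamts1*, *Adamts2*, *Adamts4*, *Adamts5*, *Adamts8*, *Adamts9*, *Adamts10*, *Adamts12*, *Adamts15* and *Adamts17*, taken by symbol from a table of 21462 genes. They are 10 of the 17 *Adamts* genes in that table, and GENCODE lists 19. All 10 had a mean of at least 10 normalized counts over the libraries and were among the 16659 genes compared. The set was chosen by symbol with the mutant and control normalized counts known, so the mutant and control values of its members are given as a description and not tested.

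The data comprise 4 libraries, 2 from Tet3 mutant and 2 from control mice, all C57BL/6. In mutants, floxed *Tet3* alleles were deleted after tamoxifen by an inducible Cre under the *α-SMA* promoter, so that deletion was limited to cells in which this promoter had been active. Controls lacked the floxed allele but carried the Cre and/or the tdTomato reporter used for sorting. Hematopoietic cells were depleted with CD45 and Ter-119 beads before DAPI-negative, tdTomato-positive cells were sorted, and the study describes its 2 libraries per group as independent animals. The labels give no age, sex or batch.

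ADAMTS proteases are secreted zinc metalloproteinases with thrombospondin repeats that bind them to the extracellular matrix. They are made as inactive precursors, matured mostly by furin-like convertases, held back by TIMP3 and cleared through the receptor LRP1. Members differ in substrate: one branch cuts the large proteoglycans versican and aggrecan, another removes the amino-terminal propeptide of fibrillar procollagens, and others are linked to fibrillin microfibrils or to cartilage oligomeric matrix protein (COMP). In airways and vessels, these enzymes are known for turning over the matrix around smooth muscle and fibroblasts.

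Promoter windows from RefSeq, on GRCm38.p6, were found for 5 of the 10 genes. Because TET3 acts on cytosines in CpG, CpG dinucleotides were counted in each window. *Adamts1* and *Adamts2* are shown, as they are the members with a window whose mutant and control libraries did not overlap, one lower and the other higher in mutants. The windows are chr16:85803064-85803363 on the minus strand and chr11:50601835-50602134 on the plus strand. Capitals mark each CG.
Adamts1: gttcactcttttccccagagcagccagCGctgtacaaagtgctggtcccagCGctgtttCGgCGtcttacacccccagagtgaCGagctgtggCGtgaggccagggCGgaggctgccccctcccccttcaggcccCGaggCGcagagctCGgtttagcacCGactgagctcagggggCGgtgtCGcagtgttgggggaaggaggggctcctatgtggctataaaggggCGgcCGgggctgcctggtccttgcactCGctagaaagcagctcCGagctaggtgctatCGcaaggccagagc
Adamts2: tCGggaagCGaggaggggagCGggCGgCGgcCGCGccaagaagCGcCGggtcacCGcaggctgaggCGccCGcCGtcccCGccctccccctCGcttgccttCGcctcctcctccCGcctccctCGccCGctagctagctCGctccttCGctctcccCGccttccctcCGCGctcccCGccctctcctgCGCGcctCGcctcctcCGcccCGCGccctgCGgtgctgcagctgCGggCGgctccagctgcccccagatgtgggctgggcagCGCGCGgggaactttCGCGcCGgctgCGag
The *Adamts1* window held 18 CG and that of *Adamts2* held 41. Of the 32851 promoter windows, 94.6% held at least 1 CG and the median was 7. A count of at least 18 was found in 29.7% of windows and one of at least 41 in 3.46%. *Adamts9* had 25, *Adamts17* had 17 and *Adamts12* had 7. Thus the matched members ran from the median of all windows to the CpG-rich end, and these counts say nothing of the methylation there.

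Deposited totals were 6805272 to 7164573 normalized counts per library. The targeted gene *Tet3* had 1847 and 1926 in the controls and 1534 and 1444 in the mutants. Most of its normalized counts thus remained in the mutants, with a log2 fold change, mutant over control, of -0.34. Control replicate 2 stood apart, with 2 normalized counts of the X-linked *Xist* against 5214 to 6781 elsewhere, and 774 of the Y-linked *Ddx3y*, which was listed at 0 in the other libraries. Read as sex, which the labels do not give, control replicate 2 was male and the other libraries, both mutants included, were female. Member values are therefore given with and without control replicate 2. All 8 smooth muscle markers followed were present in every library, the lowest being *Cnn1* with 57 in control replicate 1. Their summed level was 3521 and 5248 in controls, against 5774 to 5985 in mutants. Of these, 6 of 8 were higher in both mutants and 0 were lower in both. Among all genes tested, 19.6% were higher in both mutants. Markers of fibroblasts summed to 18149 to 21944 across libraries, those of endothelium to 13490 to 14944 and those of alveolar type 2 cells to 9604 to 19547. Markers of these other cell types were thus also present in every library, so the member values cannot be assigned to SMCs alone. In such bulk samples, fewer cells of a type and less RNA per cell cannot be told apart.

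Across all genes, limma called 0 of 16659 (0.0%) at an adjusted p under 0.05, and 1112 had an unadjusted p under 0.05 (638 higher and 474 lower in mutants, or 796 and 355 after scaling to equal library totals). Fold changes below are mutant over control on log2(value + 1), with the standard error (SE) of the limma fit.

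Among the 10 proteases, *Adamts4* had the largest fold change between mutant and control libraries and was also the least abundant. It had 15 and 38 normalized counts in controls, against 101 and 74 in mutants. The other 9 had log2 fold changes from -0.14 to 0.43. Mutants lay above both controls for *Adamts2*, *Adamts4* and *Adamts5* and below both for *Adamts1*, and the groups overlapped for the remaining 6. In the whole table, 19.6% of genes lay above and 19.5% lay below in the same sense. A fold change above 2 was seen for 1 member, as for 2.37% of all genes tested. The median log2 fold change was 0.14 over the members and -0.01 over all genes.

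**Figure D1:**
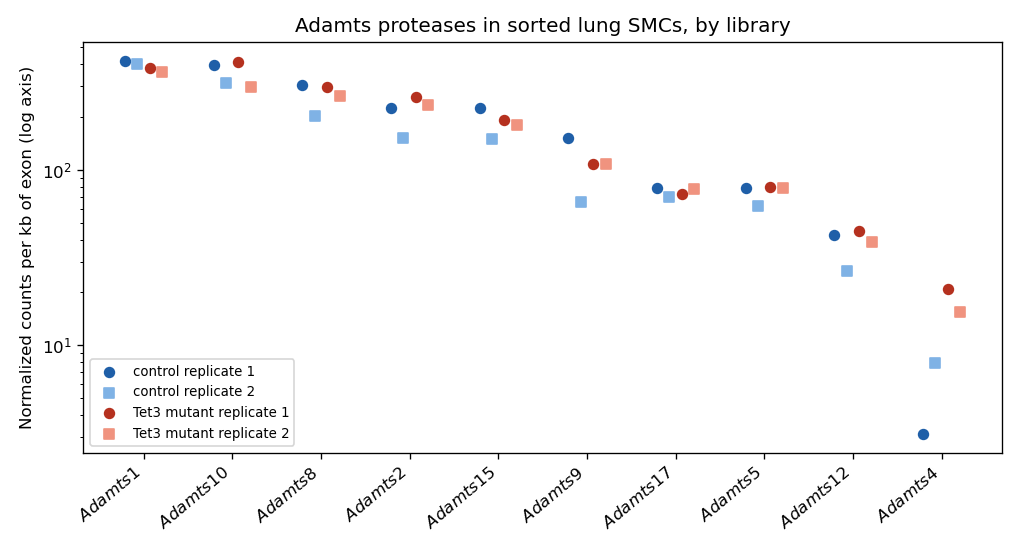
Normalized counts per kb of exon (log axis) for the 10 genes in each of the 4 libraries, ordered by control mean, with controls in blue and mutants in red. *Adamts4*, at the right, is the lowest gene in every library, with a mean of 5.51 per kb in controls and 18.2 in mutants, and control replicate 2 (light blue squares) is the lowest point for 7 of the 10 genes.

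Levels differed widely among members once divided by exon length. *Adamts1* had a control mean of 408 normalized counts per kb of exon, followed by *Adamts10* with 356 and *Adamts8* with 254. *Adamts2* and *Adamts15* followed with 188 and 186 per kb, then *Adamts9* with 109, *Adamts17* with 74.7, *Adamts5* with 70.5, *Adamts12* with 34.4 and *Adamts4* with 5.51. The ranges of neighbours over the 4 libraries overlapped except at the lower end of this order, where the lowest library of *Adamts5* lay above the highest of *Adamts12*, and likewise for *Adamts12* and *Adamts4*. Within single libraries, *Adamts10* was also above *Adamts8*, *Adamts8* above *Adamts2*, *Adamts2* above *Adamts15* and *Adamts15* above *Adamts9* in all 4, though by little for *Adamts2* and *Adamts15* in the controls. The 10 genes together took 0.222% and 0.155% of the deposited total in controls and 0.216% and 0.194% in mutants, so that the spread between controls enclosed both mutants.

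The proteoglycan-cleaving branch was the largest, with *Adamts1*, *Adamts4*, *Adamts5*, *Adamts8*, *Adamts9* and *Adamts15*. *Adamts4* (ENSMUSG00000006403, chromosome 1, 171250421 to 171260637, plus strand) encodes an aggrecanase that also cuts versican and is known to be induced by inflammatory cytokines. Its mean was 26.5 ± 16.3 in controls and 87.5 ± 19.1 in mutants (SD, n = 2 each), so the mutant mean was 3.30 times that of controls. The log2 fold change was 1.81 with an SE of 0.51. Both mutants lay above both controls, and the controls differed from each other by 2.53-fold. Without control replicate 1 the log2 fold change was 1.17, and without control replicate 2 it was 2.45. Values this low carry large counting error. As markers of leukocytes, the 6 macrophage genes summed to 5268 and 4482 in controls, against 5816 and 6855 in mutants, with 5 of 6 higher in both mutants and none at 0. The groups overlapped for *Marco*, with 119 and 17 in controls, against 77 and 82 in mutants. The 6 T cell genes summed to 506 and 152 in controls, against 561 and 575 in mutants. Of these, 4 of 6 were higher in both mutants and none was at 0. Among all genes tested, 19.6% were higher in both mutants. Control replicate 2 was the lower control in both sums but the higher one for *Adamts4*. The part of these markers in the *Adamts4* difference was not tested.

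*Adamts5*, the other main aggrecanase, had 847 and 675 normalized counts in controls, against 857 and 852 in mutants. The mutants agreed closely and sat just above control replicate 1, so the fold change rested on control replicate 2. On the log2 scale it was 0.18 with an SE of 0.14, and 0.01 without that library. *Adamts1*, which cuts versican and is known as an early-response gene of inflammation and growth signals, had 2212 and 2114 in controls, against 2020 and 1901 in mutants. It was the only member lower in both mutants, with a log2 fold change of -0.14 (SE 0.10) and a range from -0.19 to -0.10 when 1 library was left out (-0.17 without control replicate 2). Replicates differed by 1.05-fold in controls and 1.06-fold in mutants, among the closest of the set. The 12 genes of the dissociation response, which includes *Fos* and *Egr1*, summed to 10116 and 12970 in controls, against 10503 and 7411 in mutants. Of these, 5 of 12 were lower in both mutants and none was at 0. Among all genes tested, 19.5% were lower in both mutants. The part of the dissociation response in the *Adamts1* values was not tested.

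*Adamts8*, a protease best known from lung and vessel wall, had 1411 and 932 normalized counts in controls, against 1372 and 1210 in mutants. *Adamts15*, a versican-cleaving enzyme, had 2320 and 1539 in controls, against 2002 and 1867 in mutants. For *Adamts9*, which cuts versican and is known in vascular and skeletal development, libraries held 2277 and 992 in controls, against 1622 and 1623 in mutants. In each of these 3 genes the controls enclosed both mutants, with control replicate 1 highest and control replicate 2 lowest. Log2 fold changes were 0.17 (SE 0.22) for *Adamts8*, 0.03 (SE 0.21) for *Adamts15* and 0.11 (SE 0.39) for *Adamts9*, and without control replicate 2 they were -0.13, -0.26 and -0.49. The linear means of *Adamts9* were 1634.5 ± 909 in controls and 1622.5 ± 0.707 in mutants (SD, n = 2 each), so its direction also depended on the scale. Of its 15048 exon bases, 12.0% are shared with genes on the opposite strand, and for *Adamts8* the share is 10.6%, so that these values are less certain without stated strand-specific counting.

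*Adamts2* (ENSMUSG00000036545, chromosome 11, 50602084 to 50807573, plus strand) removes the amino-terminal propeptide of procollagens and stood for the second branch. It had 2095 and 1414 normalized counts in controls, against 2441 and 2190 in mutants. Both mutants lay above both controls, though by less than the distance between the controls. The mean was 1754.5 ± 482 in controls and 2315.5 ± 177 in mutants (SD, n = 2 each). This gave a log2 fold change of 0.43 (SE 0.21). It fell to 0.14 without control replicate 2 and was 0.71 without control replicate 1. Collagen substrates were measured beside it. *Col1a1* had 3891 and 3261 in controls, against 4262 and 3689 in mutants, and *Col1a2* had 4086 and 3354 in controls, against 4529 and 3835 in mutants. Fibroblast markers, which include both collagens, summed to 21076 and 18149 in controls, against 21944 and 19880 in mutants. Of these, 4 of 10 were higher in both mutants and none was at 0, where 19.6% of all genes tested were higher. The part of the fibroblast markers was not tested.

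*Adamts10* and *Adamts17*, both linked to fibrillin microfibrils, had near-equal group means. *Adamts10* was the most abundant member by normalized counts, with 3287 and 2587 in controls, against 3414 and 2462 in mutants. The means were 2937 and 2938, while replicates differed by 1.27-fold in controls and 1.39-fold in mutants. Its log2 fold change was -0.01 with an SE of 0.21 and turned to 0.04 with equal library totals. It was -0.18 without control replicate 2, and leaving out each library in turn moved it between -0.24 and 0.23. *Adamts17* had 616 and 544 in controls, against 568 and 606 in mutants, a log2 fold change of 0.02 with an SE of 0.12, which turned to -0.07 without control replicate 2. Both mutants lay between the controls. *Adamts12*, which cuts COMP, had 463 and 288 in controls, against 491 and 422 in mutants. Its groups overlapped, and the log2 fold change of 0.32 (SE 0.25) became -0.02 without control replicate 2.

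**Figure D2:**
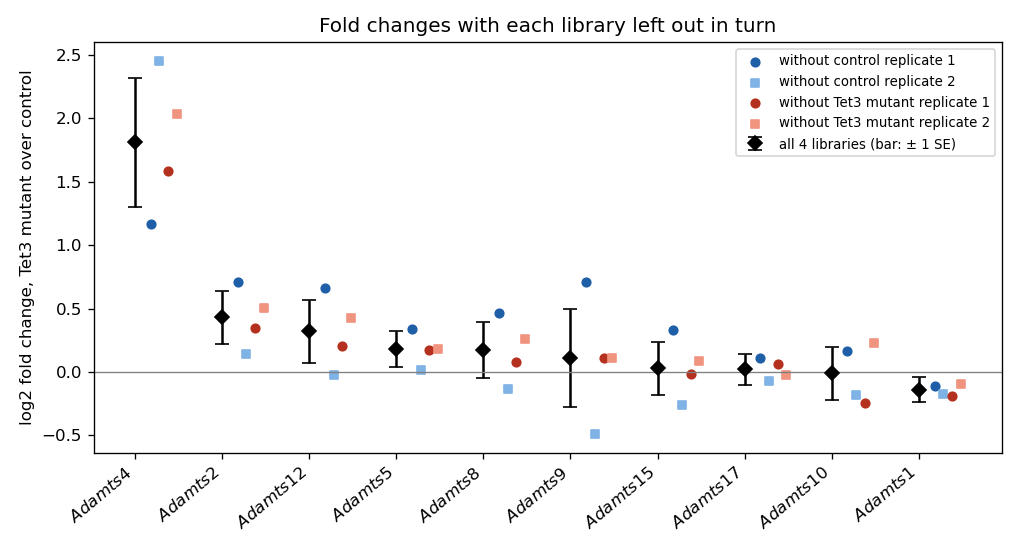
Log2 fold change of each gene, mutant over control, with all 4 libraries (black diamonds, bars ± 1 SE) and with each library left out (coloured points). *Adamts4* stays above 1.16 in each case, *Adamts1* stays below 0, and without control replicate 2 (light blue squares) only *Adamts2*, *Adamts4* and *Adamts5* lie above 0.

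Control replicate 2 moved with many of the members. It was the lowest library for 7 of the 10 genes, where 33.1% of all genes tested had it lowest. The controls differed from each other by a median of 0.58 on the log2 scale over the members, against 0.28 over all genes. Between the mutants the medians were 0.13 and 0.18. Only for *Adamts1* and *Adamts4* was the fold change larger than the difference between the controls. Of the members, 8 had a log2 fold change above 0 with all libraries, as had 49.0% of genes tested, and 3 had one without control replicate 2. Their median was then -0.10, against 0.40 without control replicate 1. The sex-linked genes that set this library apart were described above, and their part in its lower values was not tested.

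Some members lie beside each other. *Adamts15* and *Adamts8* are 20.1 kb apart on chromosome 9, on opposite strands, and their libraries fell in the same order, from control replicate 1 through mutant replicates 1 and 2 to control replicate 2. *Adamts1* and *Adamts5* are 53.1 kb apart on chromosome 16, both on the minus strand, and their libraries fell in different orders, with *Adamts1* lower and *Adamts5* higher in both mutants. *Adamts9* lies 9.31 Mb from *Tet3* on chromosome 6. Within 1 Mb of *Adamts9*, 3 of 15 tested genes had an unadjusted limma p under 0.05.

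*Adamts4* lies in a stretch of chromosome 1 with Fc receptor and SLAM receptor genes of leukocytes. Within 1 Mb of it, 48 other genes were tested, and their median log2 fold change was 0.22. Of these, 13 had an unadjusted limma p under 0.05 (27.1%, against 6.68% of all genes tested), 11 higher and 2 lower in mutants, and none was called after adjustment. Among genes close to it, the values of *B4galt3* were 247 and 430 (controls) against 256 and 243 (mutants). Those of *Fcer1g*, a subunit of Fc receptors, were 144 and 154 against 193 and 286, so that both mutants lay above both controls for *Fcer1g* and the groups overlapped for *B4galt3*. Near the other 9 members this share ran from 0.0% to 20.0%, the highest being that of *Adamts9* given above, and within 1 Mb of *Tet3* it was 22.2% (8 of 36 genes).

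**Figure D3:**
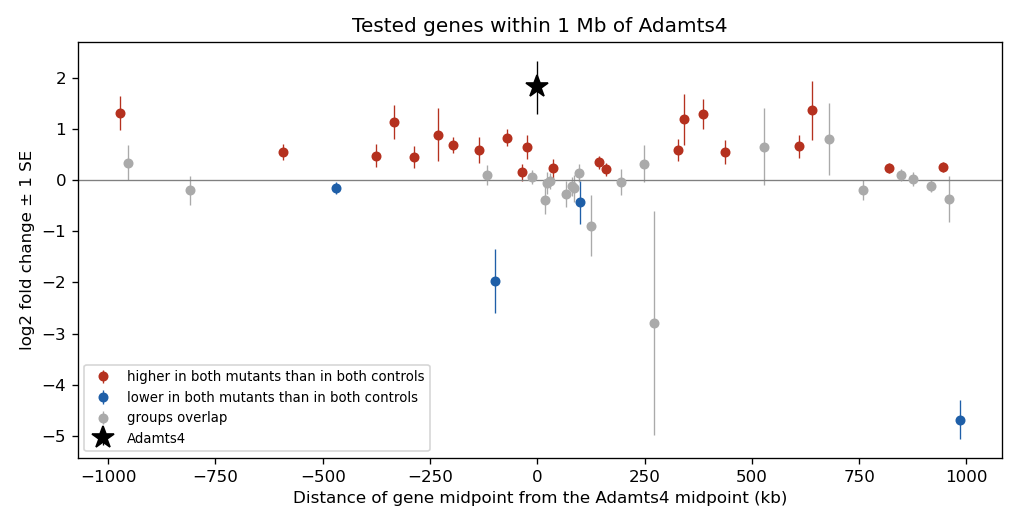
Log2 fold change (± 1 SE) of the 48 tested genes within 1 Mb of *Adamts4*, plotted by distance of their midpoints from that of *Adamts4* (star, 1.81). Red marks the 22 genes whose mutant libraries both lay above the controls, blue the 4 that were lower, and grey those whose groups overlap. Among all genes tested, 19.6% lay above and 19.5% lay below in this sense.

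Genes of related role were read from the same fit. Of 65 listed, 62 were in the table and 56 were tested. With limma, 0 of the 56 were called at an adjusted p under 0.05. At an unadjusted p under 0.05 there were 7 higher and 1 lower in mutants, where 3.83% and 2.85% of all genes tested had such values. Together these 8 became 0 without Tet3 mutant replicate 1, 1 without Tet3 mutant replicate 2, 6 without control replicate 2 and 18 without control replicate 1. Every adjusted p in the following paragraphs is from that limma fit.

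Of the other 9 ADAMTS proteases, 7 were in the table and 6 were tested, 0 with an unadjusted p under 0.05. *Adamts3*, a second procollagen propeptidase, had 160 and 96 normalized counts in controls, against 143 and 168 in mutants. *Adamts14*, of the same kind, had 121 and 56 in controls, against 113 and 65 in mutants. *Adamts7*, a second COMP-cleaving enzyme, had 190 and 85 in controls, against 122 and 130 in mutants. *Adamts6*, the closest relative of *Adamts10*, had 159 and 139 in controls, against 189 and 138 in mutants. *Adamts19* had 18 to 45 and *Adamts20* 12 to 16 across libraries, and *Adamts16* was below the minimum, at 0 to 5. The groups of all 6 tested genes overlapped, with log2 fold changes from -0.01 to 0.47. *Adamts13* and *Adamts18* were not analysed here.

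The ADAMTS-like glycoproteins resemble the proteases but lack the catalytic domain. *Adamtsl3* had 379 and 447 normalized counts in controls, against 632 and 537 in mutants, a log2 fold change of 0.50 (SE 0.15, adjusted p 0.681, unadjusted p 0.0218). It was the 1 gene of 7 in this list with an unadjusted p under 0.05, and it lay between 0.38 and 0.62 when 1 library was left out. *Adamtsl4*, linked to fibrillin in the eye, had 459 and 419 in controls, against 516 and 510 in mutants. *Papln* had 17 and 18 in controls, against 8 and 11 in mutants. Groups overlapped for *Adamtsl1*, *Adamtsl2*, *Adamtsl5* and *Thsd4*. *Adamtsl2*, a regulator of fibrillin and TGF-beta in the lung, had 1398 and 918 in controls, against 1303 and 1302 in mutants. *Thsd4* had 2086 in control replicate 2 and 662 to 745 in the other libraries, so its log2 fold change of -0.66 (SE 0.53, adjusted p 0.742) was 0.17 without that library.

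Among substrates, 24 of 27 listed genes were tested and 21 had a log2 fold change above 0, with a median of 0.17. Of all genes tested, 49.0% had one above 0. Control replicate 2 was the lower control for most of these substrates, and how far the count rested on that library was not examined. At an unadjusted limma p under 0.05, 5 were higher and 0 lower, where 3.83% and 2.85% of all genes tested were. *Lum*, a small proteoglycan of collagen fibrils, had 403 and 336 normalized counts in controls, against 523 and 574 in mutants, a log2 fold change of 0.57 (SE 0.15, adjusted p 0.681, unadjusted p 0.0111). *Comp*, the matrix protein cut by ADAMTS12 and ADAMTS7, had 11 and 9 in controls, against 55 and 28 in mutants, a log2 fold change of 1.88 (SE 0.48, adjusted p 0.681, unadjusted p 0.0112). The other 3 were *Thbs2*, *Nid2* and *Vcan*, and these and the collagens above were named after their values were seen. *Vcan*, the gene of versican, had 1372 and 920 in controls, against 1645 and 1595 in mutants, a log2 fold change of 0.53 (SE 0.20, adjusted p 0.681, unadjusted p 0.0490). Control replicate 2 was the lowest library for *Lum*, *Comp* and *Vcan*. Without it, the log2 fold change was 0.44 for *Lum* and 1.75 for *Comp*. No such value is given for *Vcan*, where control replicate 1 lay nearer to the mutants, so part of its fold change rested on control replicate 2. Both mutants lay above both controls for all 5 substrates, as for 19.6% of all genes tested. Choosing genes by p makes this likely in advance, so it adds nothing to those p values. *Lum* is also among the fibroblast markers, whose sums were given beside *Adamts2*.

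Of the inhibitors and clearance genes, 7 of 8 were tested, and *Timp1*, a general metalloproteinase inhibitor, was the 1 with an unadjusted p under 0.05. It had 63 and 31 normalized counts in controls, against 86 and 107 in mutants, a log2 fold change of 1.10 (SE 0.41, adjusted p 0.681, unadjusted p 0.0435). The range was 0.60 to 1.60 when 1 library was left out. *A2m*, a broad protease inhibitor, was listed at 8 and 3 in controls, against 24 and 11 in mutants. *Timp3*, the main ADAMTS inhibitor, had 3831 and 3679 in controls, against 4174 and 3479 in mutants, and the clearance receptor gene *Lrp1* had 11195 and 10565 in controls, against 11720 and 9794 in mutants. Both were named for their role and outside the rule for named genes, and in both the mutants enclosed the controls. Of 14 genes of maturation and cofactors, 12 were tested. *Pcsk7*, a furin-like convertase, had 516 and 507 in controls, against 402 and 378 in mutants, a log2 fold change of -0.39 (SE 0.12, adjusted p 0.681, unadjusted p 0.0209). *Mmp15* had 1280 and 2610 in controls, against 821 and 1277 in mutants. The log2 fold change of -0.84 (SE 0.39, adjusted p 0.681) was -0.32 without control replicate 2.

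**Figure D4:**
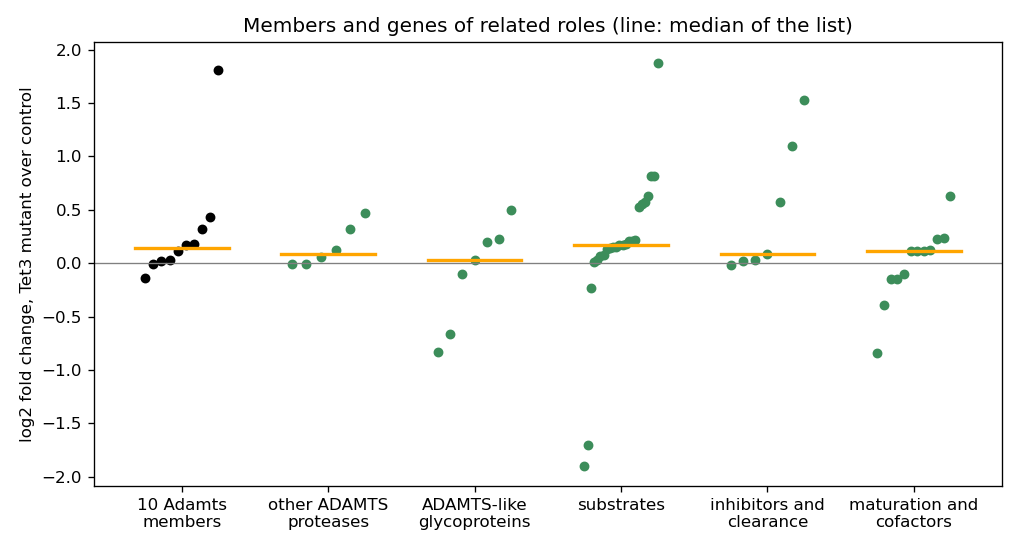
Log2 fold change of the 10 members (black) and of the tested genes in 5 lists of related role (green), 1 point per gene, with the median of each list as an orange line. List medians lie between 0.03 and 0.17 and that of the members at 0.14, while single genes reach 1.88 for *Comp* and 1.81 for *Adamts4*.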

How the data were processed

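RNA was sequenced from sorted lung SMCs of 2 control and 2 Tet3 mutant mice. The authors depleted ribosomal RNA, prepared stranded single-end libraries, trimmed reads with Trimmomatic (0.36 per the submitters' processing notes), aligned them with STAR (2.6.0c) to mm10 (GRCm38) and counted those overlapping exons with featureCounts (Subread 1.6.0), excluding reads that matched several genes or places. The deposited values are a score: counts scaled with DESeq2 by the authors and rounded to whole numbers. The depth in reads of each library was not estimated here, and whether strand was used in counting is not given in the sources used here.

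The limma package (3.58.1, R 4.3.3) was applied to genes with a mean of at least 10, on log2(value + 1), with a mean-variance trend and Benjamini-Hochberg adjustment over all genes tested, at a threshold of 0.05. Libraries were grouped by the genotype in their titles. The script was tested on simulated data. The fold changes understate differences of low genes. With 2 samples per group, an exact test of a single gene cannot pass the threshold, so no such test was made. Coordinates on GRCm38 were taken from the table, and exon lengths from GENCODE M21, whose coordinates matched for all 10 members.

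The members, lists and settings were chosen with earlier results of these data known. Named genes were the members, all related *Adamts* and *Adamtsl* genes with *Papln* and *Thsd4*, the 2 genes of smallest p in each further related list, and *Tet3*. Exceptions are stated. Alternatives were other pseudocounts, minimums and scalings, no trend, a replicate block, and each library left out.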

Additional observations from a re-analysis of the deposited data

How the results depend on the processing

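No gene was called by limma under any alternative except without the mean-variance trend, where 1 was (*Hal*, no member of the lists here), and the smallest adjusted p ranged from 0.0307 to 0.538 over the settings that kept all libraries. The cause was not tested. Of the related genes, 0 were called under every setting run. Leaving out 1 library at a time leaves a group of 1, assumed to vary like the other group, and moved the genes at an unadjusted p under 0.05 between 273 (without Tet3 mutant replicate 1) and 3366 (without control replicate 1), from 1112. The median log2 fold change of the members ranged from -0.10 (without control replicate 2) to 0.40 (without control replicate 1). Over the other settings it stayed between 0.14 and 0.19. Direction was kept whichever library was left out by 4 of the 10 members (*Adamts1*, *Adamts2*, *Adamts4* and *Adamts5*) and by 9 of the 19 named related genes. With all libraries and another setting, 9 of the 10 members kept it, *Adamts10* being the exception.

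Related genes that reversed when a library was left out ranged from -0.49 to 0.61 (*Adamts14*), -0.033 to 0.97 (*Adamts19*), -0.21 to 0.18 (*Adamts20*), -0.046 to 0.69 (*Adamts3*), -0.11 to 0.34 (*Adamts6*), -0.59 to 0.56 (*Adamts7*), -0.34 to 0.14 (*Adamtsl1*), -0.10 to 0.50 (*Adamtsl2*), -0.23 to 0.29 (*Adamtsl5*) and -1.49 to 0.17 (*Thsd4*). With equal library totals *Adamts20* turned to 0.032 and *Adamts7* to 0.034, and the share of higher genes among those at an unadjusted p under 0.05 went from 57.4% to 69.2%.

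Deviations of same-numbered samples from their group means correlated by 0.13 across genes, but with 2 pairs this does not establish a pairing. A fit with the replicate block called 0 genes, and under it 1637 had an unadjusted p under 0.05 (42.8% higher), and the members' median was 0.14. Of the related genes, 12 had an unadjusted p under 0.05 under the block, against 8 without it.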

Other observations

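Pericyte markers had 4498 and 4725 normalized counts in controls, against 6371 and 5499 in mutants, with 4 of 6 higher in both mutants and *Rgs5* lower. Alveolar type 2 markers had 13327 and 19547 in controls, against 9604 and 12010 in mutants, with 5 of 6 lower in both. Alveolar type 1 markers had 1790 and 2831 in controls, against 1430 and 1940 in mutants. Yet 2 of these 5 genes, *Pdpn* and *Hopx*, were higher in both mutants and 0 were lower in both. Mesothelial markers had 768 and 320 in controls, against 505 and 443 in mutants, with 1 of 5 lower in both. Among all genes tested, 19.6% were higher and 19.5% were lower in both mutants.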
